A study of Homo sapiens with 9 samples.

Results

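The FGF and PDGF ligands and receptors examined here are 10 genes of the 60606 in the deposited table, chosen by symbol: the ligands FGF1, FGF2, FGF5, PDGFA, PDGFB, PDGFC and PDGFD and the receptors FGFR1, PDGFRA and PDGFRB. RNA was sequenced from U87 cells, GSCs and Diff cells, in 3 libraries each. U87 is an established human glioblastoma line, which was grown in DMEM with 10% fetal bovine serum and was not irradiated. GSCs are stem cells obtained from U87, kept without serum in DMEM/F12 with B27, EGF and bFGF (the protein encoded by FGF2, at 20 ng/ml), and irradiated 13 times with 5 Gy. Diff cells were derived from the irradiated GSCs in DMEM with 10% fetal bovine serum, and cells from clonal colonies were then grown on. GSCs therefore differ from U87 in irradiation, basal medium with B27, serum and added growth factors at once, and these cannot be told apart. Diff cells share the medium of U87. They differ from U87 in irradiation, earlier stem cell culture without serum, differentiation and clonal selection at once, and these cannot be told apart. From GSCs, Diff cells differ in serum, basal medium with B27, added growth factors and clonal selection at once, which cannot be told apart either. The number of clones kept is not given in the sources used here.

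Platelet-derived growth factors are secreted dimers of the A, B, C or D chain. They act on the receptor tyrosine kinases PDGFRα and PDGFRβ and drive the growth of glial progenitors, pericytes and fibroblasts. The A and C chains bind PDGFRα, the B chain binds both receptors, and the D chain binds chiefly PDGFRβ. Fibroblast growth factors act with heparan sulfate as a co-factor on FGF receptors, which signal through RAS-ERK and PI3K. FGF2 is the standard mitogen of neural stem cell medium, and PDGFRA is a frequent target of amplification in glioblastoma.

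Levels are given in TPM (transcripts per 1000000, which corrects for gene length and library total) and differences as log2 fold changes of TPM + 1. Of the 10 genes, 8 had a mean over 1 TPM across the 9 libraries and were tested with limma among 22909 genes. PDGFB and PDGFD did not pass that filter. A gene was called when its Benjamini-Hochberg adjusted p was under 0.05 and its absolute log2 fold change over 1. TPM keeps no read depth, so no counting error can be given. Mitochondrial genes held 25.9% to 31.8% of TPM, and no library had a median-ratio factor outside 0.958 to 1.07. Because nothing states that replicates came from separate cultures, p-values measure only the spread between libraries, which may be technical. Of the stem cell markers, FABP7 had means of 0.731, 4.91 and 2.86 TPM in U87, GSCs and Diff cells, NES 33, 22.6 and 13.5 TPM, and OLIG2 7.27, 8.75 and 5.37 TPM. For FABP7, every GSC library was above every U87 library. FABP7 entered the test only through GSCs and Diff cells, so its calls against U87 support nothing. NES was lower in GSCs than in U87 (-0.53, adjusted p = 4.70e-04, not called), and OLIG2 did not pass the test. PROM1, which encodes CD133, and SOX2 were under 1 TPM in every library and were not tested. In the same order PROM1 had means of 0.171, 0.507 and 0.0236 TPM, and SOX2 0.0383, 0.879 and 0.153 TPM. For both, every GSC library was above every other library. Leukocyte markers summed to at most 3.32 TPM in any library.

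In GSCs against U87, PDGFRB and PDGFC fell and FGF5 rose. These 3 of the 8 tested genes were called, 1 higher and 2 lower, where 17.1% of all tested genes were (9.52% higher and 7.53% lower). Diff cells had falls of PDGFRB, PDGFRA and FGF1 against U87, and none of the 8 was called higher. Called genes made up 12.3% of all tested genes in that comparison, 5.92% higher and 6.36% lower. Between Diff cells and GSCs, FGF5 and PDGFRA fell, where 8.01% of all tested genes were called, 2.66% higher and 5.36% lower. PDGFRA, with a mean of 0.0556 TPM in Diff cells, entered the test only through U87 and GSCs. Its calls in Diff cells, which these counts include, therefore support nothing. With a mean over 5 TPM required, PDGFRA is left out. The calls were then 3, 2 and 1 of 7 members, and 2254, 1583 and 1038 of 13471 genes, in the order of these comparisons. By the adjusted p alone, with no limit on the fold change, 8, 5 and 7 of the 8 genes passed in the order of these comparisons, against 48.6%, 39.4% and 34.8% of all tested genes. Of these members 2 were higher and 6 lower in GSCs against U87 (25.3% and 23.3% of all tested genes), 0 higher and 5 lower for Diff cells against U87 (18.9% and 20.5%), and 3 higher and 4 lower in Diff cells against GSCs (15% and 19.8%). The TPM ranges of the groups did not overlap for 7, 5 and 7 of the 8, and for 55.8%, 55.2% and 46.7% of all tested genes. The median log2 fold change of the 8 genes was -0.48, -0.66 and -0.14, beside medians of 0.02, -0.04 and -0.06 over all tested genes.

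**Figure D1:**
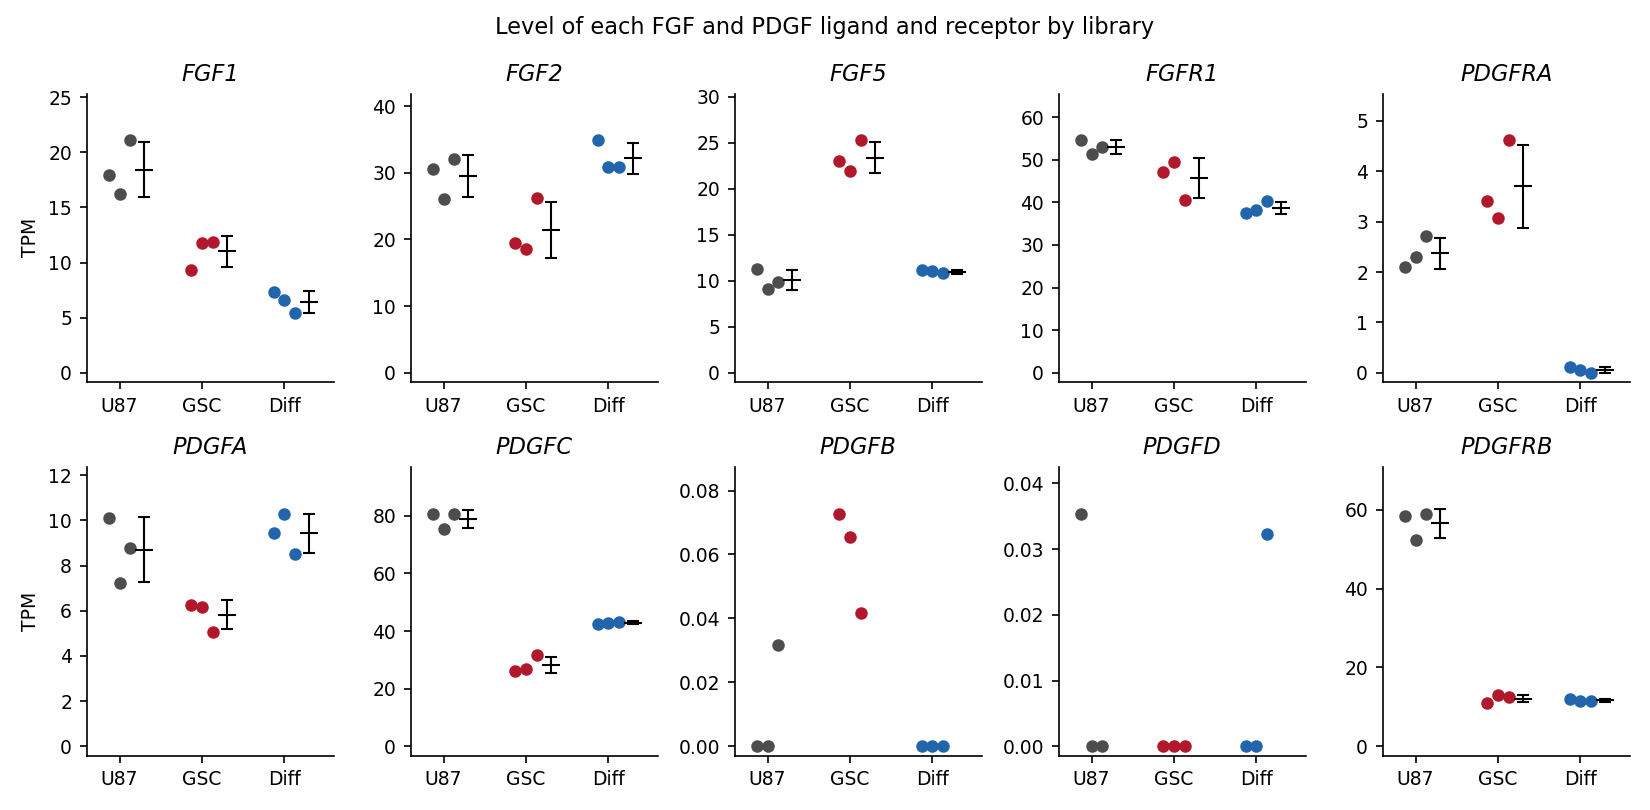
TPM (vertical axes, linear and different for each gene) of the 10 genes in U87, GSCs and Diff cells, with 1 point per library and the mean ± SD of 3 libraries beside the points, except for PDGFB and PDGFD. PDGFRB is at 52.4 to 59 TPM in U87 and at 11 to 12.9 TPM in all 6 other libraries, and PDGFRA is at 0 to 0.109 TPM in Diff cells.

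PDGFRB encodes PDGFRβ, the receptor typical of pericytes and mesenchymal cells. The gene lies on the minus strand at chr5:150113837-150155872 (GRCh38). Its level was 58.5, 52.4 and 59 TPM in the U87 libraries. It was 11, 12.9 and 12.4 TPM in the GSC libraries and 12.1, 11.6 and 11.4 TPM in the Diff libraries. GSCs and Diff cells thus both lay below every U87 library, and their ranges overlapped each other. Mean TPM was 4.68 times as high in U87 as in GSCs and 4.84 times as high in U87 as in Diff cells. On the log2 scale this was -2.14 in GSCs (adjusted p = 1.39e-07 by limma) and -2.18 in Diff cells (adjusted p = 2.03e-07), each with a standard error of 0.078. Diff cells and GSCs differed by -0.04 (95% interval -0.22 to 0.14, adjusted p = 0.718). In a bulk library, fewer cells with a transcript and less of it per cell cannot be told apart. Of 5 pericyte markers, the sum was 165 to 173 TPM in U87, 56.5 to 73.5 TPM in GSCs and 42.5 to 43.6 TPM in Diff cells. That sum followed NOTCH3, with means of 67.2, 6.78 and 0.255 TPM, and CSPG4, with 91.9, 53.1 and 36.5 TPM. RGS5 stayed between means of 3.83 and 4.75 TPM, and KCNJ8 was under 1 TPM in every library. The part of these markers in the PDGFRB result was not tested.

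PDGFRA encodes PDGFRα, the receptor that marks oligodendrocyte precursors and the proneural class of glioblastoma. It lies at chr4:54229097-54298247. Its level in U87 was low, at 2.1, 2.3 and 2.71 TPM. GSCs had 3.41, 3.07 and 4.62 TPM, and Diff cells 0.109, 0.0572 and 0 TPM. The 3 ranges did not overlap, with GSCs highest and Diff cells lowest. Mean TPM was 42.6 times as high in U87 and 66.6 times as high in GSCs as in Diff cells. With 1 Diff library left out, an alternative chosen after seeing the data, these ratios ranged from 28.4 (without Diff replicate 3) to 82.7 (without Diff replicate 1) and from 44.4 to 129, since the Diff levels are close to 0. On the log2 scale the values of Diff cells were compressed by the added 1, and the fold change was -1.67 against U87 (standard error 0.164, adjusted p = 6.25e-05) and -2.14 against GSCs (adjusted p = 2.75e-05). With 0.1 in place of 1 these were -4.044 and -4.653. GSCs differed from U87 by 0.47 (adjusted p = 0.0417), which was not a call, and 14 of 17 alternative settings gave an adjusted p of 0.05 or more. Of the exon bases of PDGFRA, 15.8% are shared with the same-strand gene AC058822.1, which was listed at 0 in every group. The 3 other markers of oligodendrocyte precursors summed to 7.34 to 8.95 TPM in U87, 7.9 to 11.1 TPM in GSCs and 4.92 to 6.33 TPM in Diff cells. Nearly all of this was OLIG2, with means of 7.27, 8.75 and 5.37 TPM, while OLIG1 and SOX10 were under 1 TPM in every library. Their part in the PDGFRA result was not tested.

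The bases before the transcription starts of PDGFRB, PDGFRA and FGF5 are shown to set side by side the receptor pair and the 1 member that was called higher in a comparison. They are from RefSeq (GRCh38.p14), 5′ to 3′ on the strand of the gene, and hold no exon of GENCODE 29. Capitals mark CCAAT (or ATTGG) and GGGCGG (or CCGCCC), the letters of the CCAAT box and of the GC box.
PDGFRB, 223 bases at chr5:150155873-150156095: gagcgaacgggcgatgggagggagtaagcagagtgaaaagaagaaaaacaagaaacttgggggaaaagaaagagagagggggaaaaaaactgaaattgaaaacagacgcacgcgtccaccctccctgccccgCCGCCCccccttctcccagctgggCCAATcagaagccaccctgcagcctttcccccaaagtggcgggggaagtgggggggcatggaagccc
PDGFRA, second of its listed starts, 250 bases at chr4:54233710-54233959: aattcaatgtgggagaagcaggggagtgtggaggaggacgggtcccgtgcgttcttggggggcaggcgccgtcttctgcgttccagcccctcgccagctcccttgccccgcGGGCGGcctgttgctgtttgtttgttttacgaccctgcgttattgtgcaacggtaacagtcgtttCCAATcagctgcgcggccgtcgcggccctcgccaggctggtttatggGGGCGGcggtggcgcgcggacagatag
FGF5, first of its listed starts, 250 bases at chr4:80266338-80266587: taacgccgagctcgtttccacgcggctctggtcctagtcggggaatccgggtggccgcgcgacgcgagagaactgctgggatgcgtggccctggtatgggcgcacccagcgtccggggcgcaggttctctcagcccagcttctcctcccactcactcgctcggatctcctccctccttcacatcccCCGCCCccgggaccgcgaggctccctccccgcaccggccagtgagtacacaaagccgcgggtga
In the stretches printed, both receptor genes held 1 CCAAT, and FGF5 held 0. The GC box letters occurred 1 time for PDGFRB, 2 times for PDGFRA and 1 time for FGF5. None of the 3 held TATAAA on either strand. The stretch of PDGFRB ends 28 bases before its start, so the bases nearest that start were not searched. These results depend on the start printed. The first listed start of PDGFRA, with 54 bases free of exons, held none of these letters. The second of FGF5, with 247 bases, held TATAAA on both strands and neither CCAAT nor GC box letters. Among 35116 RefSeq windows of 250 bases, which were not cut at exons, 32% held CCAAT, 42.6% GGGCGG and 10.7% TATAAA on either strand. A match describes letters and not a site in use. The gene-level table does not show which start was used.

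PDGFC was the most abundant PDGF ligand in all 9 libraries. It encodes the C chain, which is secreted in a latent form and activated by tissue plasminogen activator. The gene is at chr4:156760454-156971394. Its level was 80.8, 75.3 and 80.7 TPM in U87, 26.3, 27 and 31.6 TPM in GSCs, and 42.5, 42.8 and 43.3 TPM in Diff cells. The groups did not overlap, and Diff cells stood between the others. The log2 difference of GSCs from U87, -1.45, was a call (adjusted p = 7.56e-07, standard error 0.072). In Diff cells the difference from U87 was -0.87 (standard error 0.072, adjusted p = 2.30e-05), short of the limit of 1. Diff cells exceeded GSCs by 0.59 (adjusted p = 3.89e-04), again short of 1.

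PDGFA, the A chain and a mitogen of glial progenitors, lies at chr7:497258-520296. U87 had 10.1, 7.23 and 8.78 TPM, GSCs 6.27, 6.16 and 5.08 TPM, and Diff cells 9.44, 10.3 and 8.53 TPM. GSCs were below both other lines in every library, while U87 and Diff cells overlapped. The log2 difference was -0.50 in GSCs against U87 (standard error 0.134, adjusted p = 0.0137, and 0.0525 without U87 replicate 1) and 0.61 in Diff cells against GSCs (adjusted p = 0.00794), neither past 1. Diff cells and U87 differed by 0.11 (95% interval -0.20 to 0.42, adjusted p = 0.56).

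PDGFB and PDGFD were close to 0 in every library. PDGFB, the B chain that recruits pericytes to vessels, had 0, 0 and 0.0317 TPM in U87, 0.0728, 0.0655 and 0.0417 TPM in GSCs, and 0 TPM in the 3 Diff libraries. GSCs lay above the others (two-sided exact permutation test, p = 0.1 against U87 and against Diff cells, the smallest that 3 libraries against 3 allow), at levels under 0.1 TPM. PDGFD, the D chain, had 0.0354 TPM in 1 U87 library, 0.0323 TPM in 1 Diff library and 0 TPM in the other 7. Genes used by all cells, such as TBP at 27.3 to 38 TPM, were not at 0.

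**Figure D2:**
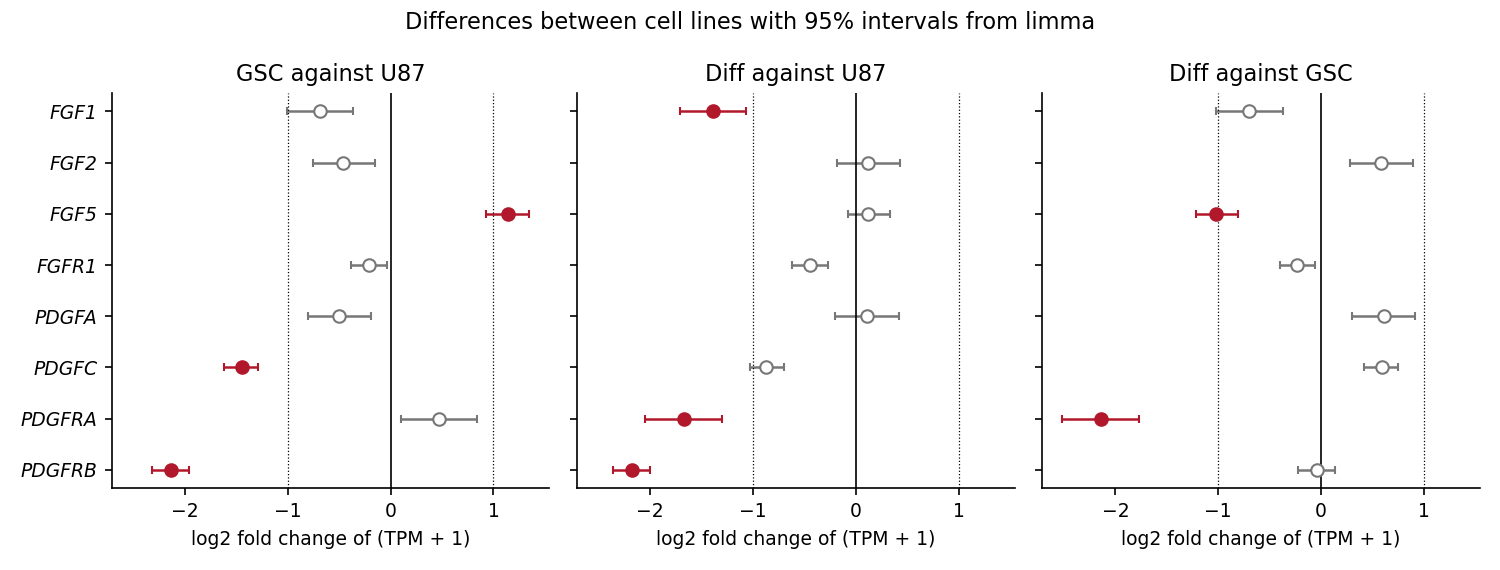
Log2 fold change of TPM + 1 (horizontal axes) of the 8 tested genes in 3 comparisons, with 95% intervals from limma; filled red points were called and dotted lines mark the limits of -1 and 1. The interval of PDGFRB lies between -2.36 and -1.96 in both comparisons against U87 and spans 0 between Diff cells and GSCs.

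FGFR1, the main FGF receptor of mesenchymal and neural stem cells, was the FGF receptor gene with nearly all transcripts. Its level was 54.6, 51.4 and 52.9 TPM in U87, 47.1, 49.4 and 40.5 TPM in GSCs, and 37.6, 38.1 and 40.2 TPM in Diff cells. The order was U87, GSCs, Diff cells, and the lowest GSC library stood just above the highest Diff library. Diff cells differed from U87 by -0.45 (standard error 0.075, adjusted p = 0.00156), which did not reach 1. GSCs differed from U87 by -0.21 (adjusted p = 0.0424) and Diff cells from GSCs by -0.23 (adjusted p = 0.0429). Adjusted p-values of these last comparisons were 0.05 or more under 14 and 15 of 18 alternative settings, and reached 0.124 and 0.173. FGFR2, FGFR3 and FGFR4 had means of at most 0.117 TPM in any line.

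FGF1, an FGF without a signal peptide that binds all FGF receptors, lies on the minus strand at chr5:142592178-142698070. It had 17.9, 16.2 and 21.1 TPM in U87, 9.36, 11.8 and 11.9 TPM in GSCs, and 7.32, 6.56 and 5.4 TPM in Diff cells. No ranges overlapped, and Diff cells were lowest. The fall in Diff cells against U87 was -1.39 as a log2 difference (adjusted p = 7.67e-05, standard error 0.141). Differences of -0.69 in GSCs against U87 (adjusted p = 0.00337) and -0.70 in Diff cells against GSCs (adjusted p = 0.00531) did not reach 1.

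FGF2, which encodes bFGF itself, lies at chr4:122826708-122898236. The protein added to the GSC medium is not RNA and does not enter these values. U87 had 30.5, 26 and 32.1 TPM, GSCs 19.4, 18.5 and 26.2 TPM, and Diff cells 34.9, 30.8 and 30.9 TPM. The lines with serum overlapped, and the highest GSC library reached the lowest of U87 but none of Diff cells. The difference of GSCs from U87 was -0.46 (standard error 0.134, adjusted p = 0.0203), and this adjusted p was 0.0621 to 0.071 without U87 replicate 1, U87 replicate 3, GSC replicate 1 or GSC replicate 2. Diff cells exceeded GSCs by 0.58 (adjusted p = 0.00993), and differed from U87 by 0.12 (95% interval -0.18 to 0.43, adjusted p = 0.508). None of these was a call. NUDT6, on the opposite strand, covers 11.9% of the exon bases of FGF2 and had means of 4.79, 4.27 and 4.1 TPM in U87, GSCs and Diff cells.

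FGF5, a secreted FGF known as the brake on hair growth and as a marker of primed pluripotent cells, lies at chr4:80266599-80336680. It had 11.3, 9.1 and 9.84 TPM in U87, 23, 21.9 and 25.3 TPM in GSCs, and 11.2, 11.1 and 10.8 TPM in Diff cells. Every GSC library was above every other library, and U87 and Diff cells overlapped. The rise in GSCs against U87 was 1.14 as a log2 difference (adjusted p = 1.22e-05, standard error 0.091). The fall in Diff cells against GSCs was -1.02 (adjusted p = 6.59e-05). That value is at the limit: it was -0.939 with quantile normalization, -0.979 after RN7SL1 and mitochondrial genes were left out of TPM, -0.963 with median-ratio scaling and -0.962 without GSC replicate 3, and was then not called. Diff cells and U87 differed by 0.12 (95% interval -0.08 to 0.33, adjusted p = 0.322).

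Because TPM corrects for length, levels can be summed over a family. The 4 PDGF ligand genes summed to 87.7 ± 4.51 TPM in U87, 34.2 ± 2.17 TPM in GSCs and 52.3 ± 0.653 TPM in Diff cells (SD, n = 3). PDGFC made up 90.1% ± 1.19 of that sum in U87, 82.6% ± 2.96 in GSCs and 82% ± 1.44 in Diff cells, and PDGFA nearly all of the rest. The receptors PDGFRA and PDGFRB summed to 59 ± 3.78, 15.8 ± 1.31 and 11.8 ± 0.397 TPM in the same order. Within that sum PDGFRA held 4.02% ± 0.482 in U87, 23.3% ± 3.96 in GSCs and 0.463% ± 0.449 in Diff cells. The ranges of this share did not overlap, from 19.2% to 27.1% in GSCs, 3.47% to 4.38% in U87 and 0% to 0.897% in Diff cells. Sums of PDGF ligand and receptor transcripts were thus both lower in GSCs and Diff cells than in U87, and the small remainder in GSCs held a larger part of PDGFRA. These sums are descriptions and were not tested.

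All 22 FGF genes summed to 72.4 ± 5.89 TPM in U87, 135 ± 13.2 TPM in GSCs and 72.4 ± 3.07 TPM in Diff cells (SD, n = 3). FGF5 held 13.9% ± 1.29, 17.3% ± 0.412 and 15.2% ± 0.524 of that sum, FGF2 40.7% ± 1.15, 15.7% ± 1.52 and 44.4% ± 1.31, and FGF1 25.4% ± 1.65, 8.2% ± 1.21 and 8.86% ± 1.08. In GSCs 65.6 TPM of the sum were listed for FGF14, whose value is uncertain for a reason given with it. FGF ligands other than FGF11 to FGF14, which stay inside cells and do not act through FGF receptors in the usual way, summed to 61.2 ± 6.59 TPM in U87, 60.6 ± 7.26 TPM in GSCs and 53.4 ± 2.95 TPM in Diff cells (SD, n = 3, over 18 genes). The choice to leave out FGF11 to FGF14 was made after their values were seen. The larger sum in GSCs and the makeup both depend on this choice. Without FGF11 to FGF14, GSCs differed from U87 by less than the SD of U87. FGF5 then held 16.5% ± 1.7 of it in U87, 38.7% ± 2.23 in GSCs and 20.7% ± 0.81 in Diff cells. FGF1 held 30.1% ± 1.45, 18.3% ± 2.22 and 12% ± 1.23, and FGF2 48.2% ± 0.433, 35.1% ± 2.75 and 60.2% ± 1.52. FGFR1 held at least 99.2% of the FGFR1 to FGFR4 sum in each library.

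**Figure D3:**
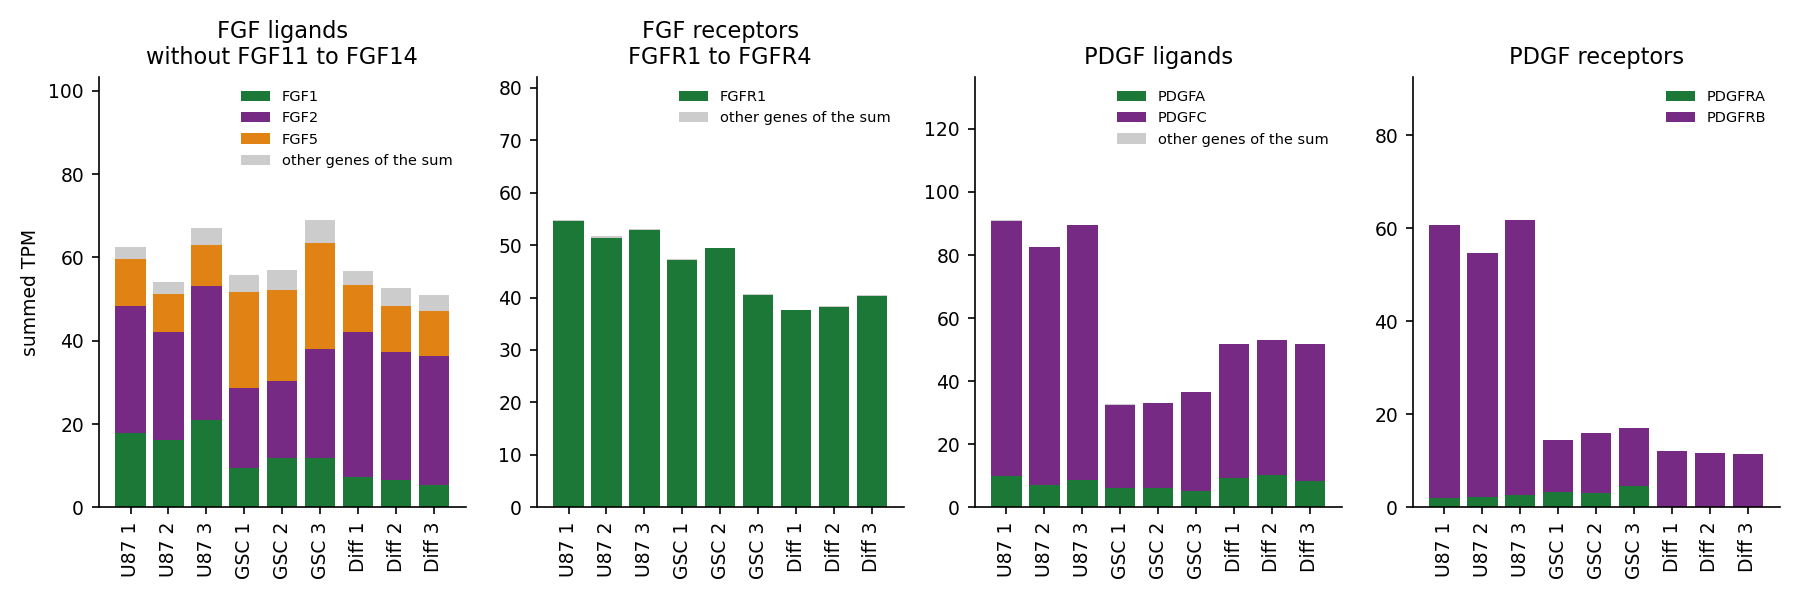
Stacked bars of TPM (vertical axes from 0) in each of the 9 libraries for FGF ligands without FGF11 to FGF14, FGF receptors, PDGF ligands and PDGF receptors, with the named genes in colour and the rest in grey. PDGF ligands reach 82.5 to 91 TPM in U87 and 32.7 to 36.7 TPM in GSCs, while the FGF ligand bars have similar heights and a larger FGF5 part in GSCs.

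Genes along some chromosomes differ together between these lines, so each member was set beside up to 25 tested genes on each side. PDGFRB, with -2.14 in GSCs and -2.18 in Diff cells against U87, had neighbours with medians of -0.24 and -0.10, and 5 and 1 of 50 were lower. CSF1R, the receptor gene that starts 464 bases beyond the end of PDGFRB on the same strand, had 15.8, 12.9 and 16.1 TPM in U87, 4.2, 5.15 and 4.69 TPM in GSCs, and 9.09, 10.6 and 9.66 TPM in Diff cells. CSF1R was below U87 in both lines, by -1.49 in GSCs (adjusted p = 9.26e-06, called) and -0.57 in Diff cells (adjusted p = 0.00402, not called). Between Diff cells and GSCs, where PDGFRB differed by -0.04, CSF1R differed by 0.92 (adjusted p = 3.86e-04). PDGFC, at -1.45 in GSCs, had neighbours with a median of 0.08, and 1 of 50 was lower. For PDGFRA in Diff cells the neighbours' median was -0.19 against U87, with 1 of 50 lower, and -0.21 against GSCs, with 0 of 50 lower. KIT and KDR, the receptor genes that follow PDGFRA on chromosome 4, had other levels. KIT was at 0 to 0.0128 TPM, and KDR had means of 5.97, 17.3 and 9.56 TPM in U87, GSCs and Diff cells.

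FGF5 in GSCs exceeded 47 of its 50 neighbours, whose median was 0.15. FGF1 in Diff cells stood above 6 of 50 neighbours, and their median of -0.30 was itself below that of all tested genes. FGFR1 lay near its neighbours, with 15 of 50 lower in Diff cells against U87 and a neighbour median of -0.11. The 27 neighbours of PDGFA on chromosome 7 had medians of 0.24 in GSCs and 0.51 in Diff cells against U87, and PDGFA was above 3 and 7 of them. PDGFD, near 0 throughout, lies among genes of chromosome 11 with medians of 0.80 in GSCs and 0.61 in Diff cells against U87. What moved the neighbours was not tested.

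**Figure D4:**
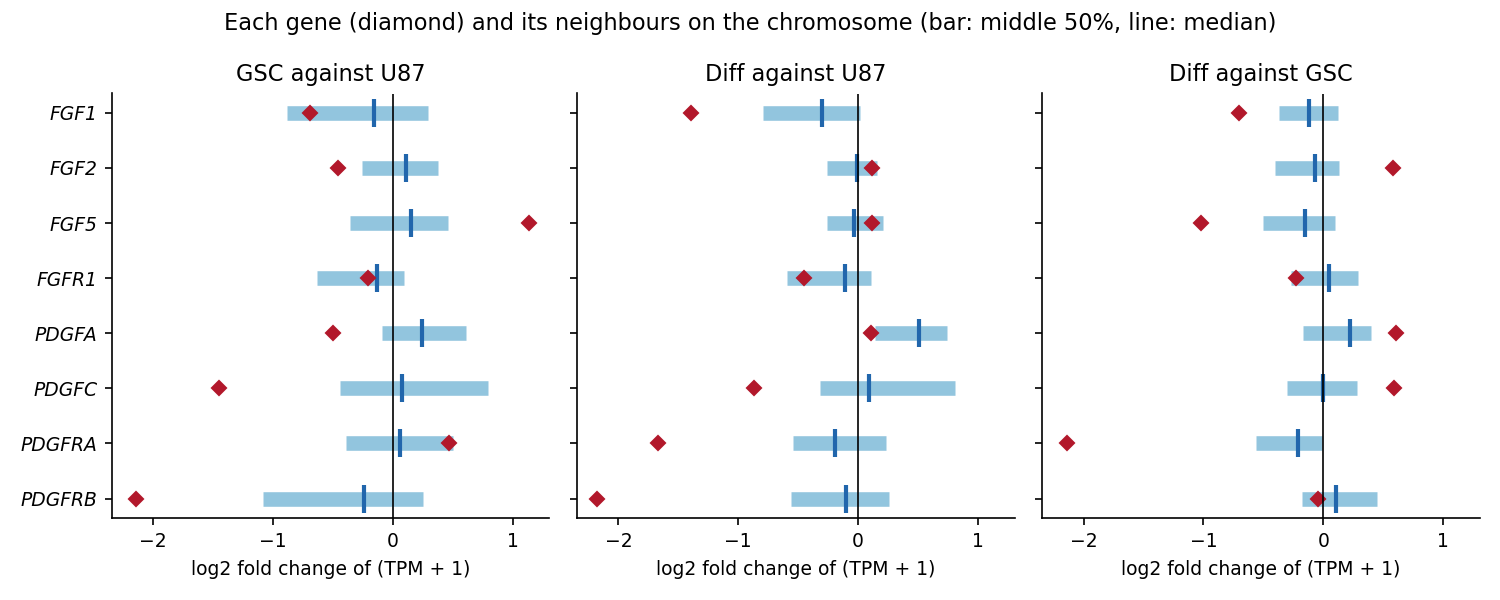
Log2 fold change of TPM + 1 (horizontal axes) of the 8 tested genes (diamonds) beside the middle 50% (bars) and the median (lines) of 27 to 50 tested neighbours on the chromosome, in 3 comparisons. PDGFRB and PDGFC in GSCs and PDGFRB, PDGFRA and FGF1 in Diff cells lie left of the bars of their neighbours, whereas FGFR1 lies within its bar in both comparisons against U87.

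PDGFRB had the largest range of group means among the 10 genes on the scale of log2(TPM + 1), at 2.18 beside 2.14 for PDGFRA. That order depends on the added 1, since with 0.1 in its place PDGFRA in Diff cells against GSCs was -4.653. Of 2547 tested protein-coding genes whose group means span at least 1, those whose values over the 9 libraries were most alike were FGD3, TENM2, TBX2, BCR and ZNF772, with Pearson r of 0.9978 to 0.9989. TBX2, a T-box transcription factor, had 61 ± 3.88 TPM in U87, 11.9 ± 0.919 TPM in GSCs and 11.1 ± 0.755 TPM in Diff cells (SD, n = 3). TENM2, a teneurin, had 8.13 TPM, 0.134 TPM and 0.0159 TPM on average. FGD3, TENM2 and ZNF772 entered the test only through U87, and their values in GSCs and Diff cells were compressed by the added 1. These correlations rest on the contrast of 3 groups and are a description.

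Other genes of the same pathways were taken from 6 lists of 96 genes, of which 57 were tested. For GSCs against U87 the calls were 8 up and 11 down. For Diff cells they were 5 up and 9 down against U87, and 2 up and 6 down against GSCs. Called genes thus made up 19, 14 and 8 of the 57, and 17.1%, 12.3% and 8.01% of all tested genes. FGF9, A2M, PCSK5, PGF and SDC3 entered the test only through the group or groups where they were high. Their calls, which these counts include, therefore support nothing. With a mean over 5 TPM required, which leaves these genes out, 14, 10 and 5 of 47 pathway genes were called. Under the same filter 2254, 1583 and 1038 of all 13471 tested genes were. PLAT, FGF14 and CSF1R passed this stricter filter only through the lines where they were high, so these counts have the same limit. The medians of the 57 were -0.16, -0.18 and -0.09. All 3 comparisons share libraries in pairs, so their counts are not independent of each other.

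Of 9 tested genes whose proteins process or bind PDGF, GSCs had 2 calls up and 4 down, and Diff cells 1 up and 4 down, against U87. These calls include A2M (up in GSCs) and PCSK5 (down in both), which support nothing for the reason given above. Over all tested genes the shares were 9.52% up and 7.53% down in GSCs, and 5.92% up and 6.36% down in Diff cells. The medians of the 9 were 0.28 and -0.32. NRP1, a co-receptor that binds PDGF and VEGF, had 271, 266 and 266 TPM in U87, 68.8, 71.7 and 84.6 TPM in GSCs and 85.2, 79.2 and 77.5 TPM in Diff cells, with log2 fold changes of -1.83 and -1.72 (adjusted p = 3.10e-07 and 7.19e-07). PLAT, the tissue plasminogen activator that activates the C chain, had 13.9, 12.6 and 15.4 TPM in U87, 4.09, 3.58 and 4.28 TPM in GSCs and 4.26, 4.32 and 3.46 TPM in Diff cells. Its log2 fold changes were -1.59 and -1.58 (adjusted p = 8.17e-06 and 1.23e-05). PCSK5, a proprotein convertase, had means of 3.06, 0.516 and 0.266 TPM in U87, GSCs and Diff cells. SPARC, a matrix protein that binds PDGF, had -1.16 in GSCs and -1.04 in Diff cells, and the latter was -0.977 to -1.089 over the alternatives, so that it was not called under 3 of 18. LRP1, an endocytic receptor that associates with PDGFRβ, was higher in GSCs, at 894, 975 and 758 TPM against 453, 432 and 400 TPM in U87 (1.02, adjusted p = 2.29e-05) and 347, 348 and 336 TPM in Diff cells. The rise of LRP1 was not called under 3 of 18 alternatives. A2M, a plasma protein that binds growth factors, had means of 0.269 TPM in U87, 2.93 TPM in GSCs and 0.0257 TPM in Diff cells. PLAU, which activates the D chain, was called higher in Diff cells at the limit of 1. Without U87 replicate 2 (0.843) or Diff replicate 2 (0.948) it was not called. Of its exon bases, 31.1% lie opposite C10orf55. That gene had means of only 1.01, 0.721 and 1.5 TPM in U87, GSCs and Diff cells, beside 66.7, 117 and 133 TPM for PLAU.

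Of 17 tested genes for heparan sulfate and FGF binding, 2 were called up and 3 down in GSCs, and 1 up and 3 down in Diff cells, against U87. The calls down in Diff cells include SDC3, which supports nothing for the reason given above. Calls in either direction made up 17.1% and 12.3% of all tested genes. GPC6, a glypican that carries heparan sulfate at the membrane, rose in both, from 107, 117 and 98.6 TPM in U87 to 375, 348 and 457 TPM in GSCs (1.85, adjusted p = 1.73e-06) and 297, 263 and 282 TPM in Diff cells (1.38, adjusted p = 1.46e-05). SDC2, a syndecan, had -1.29 and -1.54, and EXTL3, a glycosyltransferase of the heparan sulfate chain, -1.45 and -1.74. NDST1, which sulfates the chain, had 184, 176 and 169 TPM in U87, 53.5, 55.1 and 51.4 TPM in GSCs and 118, 117 and 120 TPM in Diff cells. The difference was -1.71 in GSCs against U87 (adjusted p = 4.48e-08) and 1.14 in Diff cells against GSCs (adjusted p = 1.63e-06). SDC3 was lower in Diff cells than in both other lines, by log2 fold changes of -1.93 and -1.77, which were -3.457 and -3.253 with 0.1 added in place of 1. GPC2 rose from a mean of 1.36 TPM in U87 to 4.23 TPM in GSCs (adjusted p = 1.11e-04). Of the receptors and co-receptors besides FGFR1, FGFRL1, an FGF receptor without a kinase, was the 1 tested, and its differences from U87 of -0.63 and -0.68 were not calls.

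Of 18 tested adaptors and effectors, 1, 0 and 0 were called in GSCs against U87, Diff cells against U87 and Diff cells against GSCs. Of 8 tested related ligands and receptors, 5, 3 and 2 were called in that order, PGF among those against U87. Over all tested genes the shares were 17.1%, 12.3% and 8.01%. NCK2, an adaptor recruited by PDGFRβ, with means of 41.2 TPM in U87 and 20.1 TPM in GSCs, was at the limit of the fold change (adjusted p = 1.46e-06) and was not called under 2 of 18 alternatives. Among related ligands and receptors, CSF1, the ligand of CSF1R, had 59.2, 63.1 and 55.1 TPM in U87, 128, 140 and 137 TPM in GSCs and 250, 270 and 272 TPM in Diff cells, with log2 fold changes of 1.18 and 2.14 (adjusted p = 1.40e-06 and 9.07e-08). VEGFA, which is of the same protein superfamily as PDGF, had 315, 294 and 304 TPM in U87, 151, 149 and 129 TPM in GSCs and 68.3, 70.1 and 64.8 TPM in Diff cells. Its differences from U87 were -1.09 and -2.15. PGF had means of 2.53, 0.743 and 0.443 TPM, and its call in GSCs was lost without U87 replicate 1 (-0.843) or GSC replicate 2 (-0.848). KDR, a VEGF receptor, rose by 1.39 in GSCs. KITLG, the ligand of KIT, rose by 1.16 in Diff cells against GSCs.

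**Figure D5:**
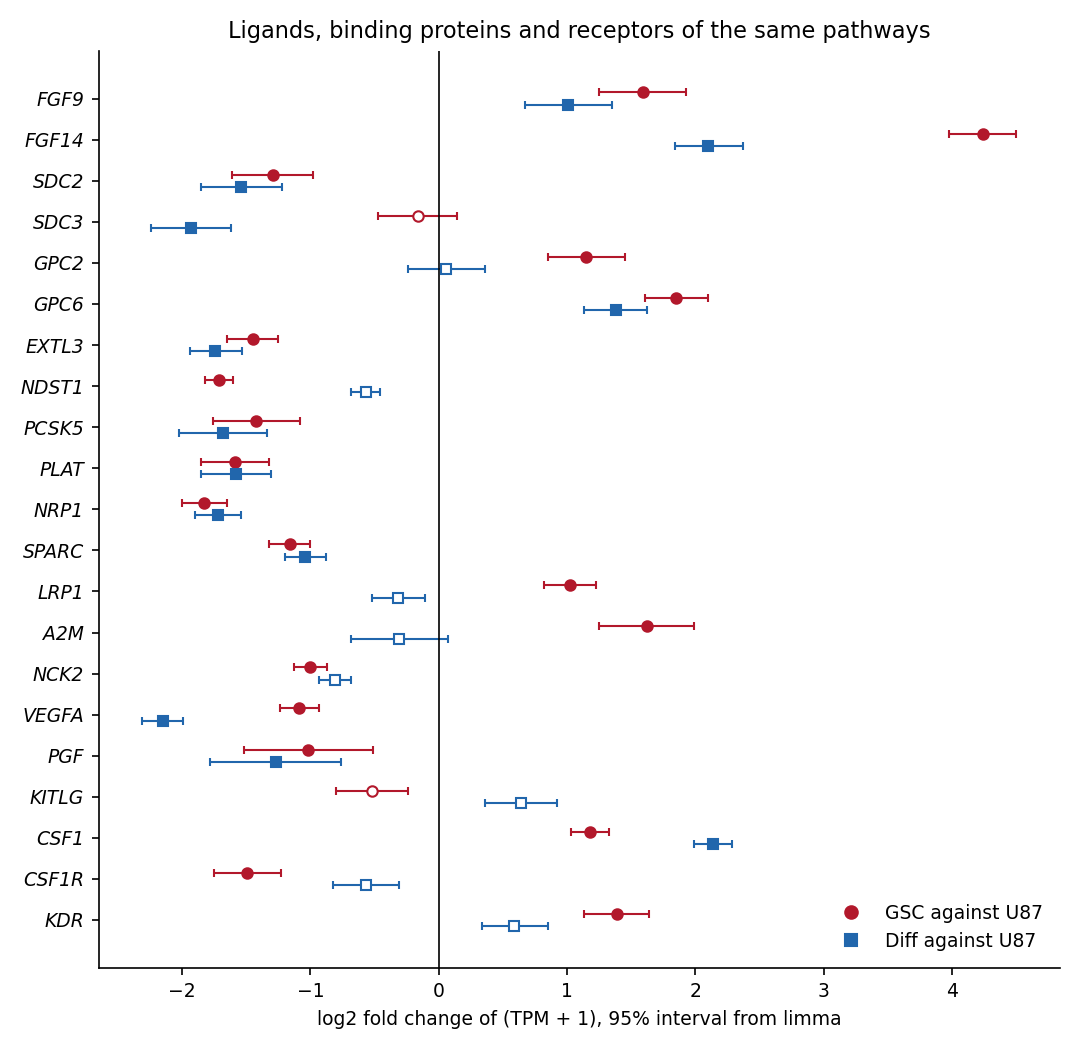
Log2 fold change of TPM + 1 (horizontal axis) with 95% intervals from limma for the 21 named genes of the pathway lists, in GSCs against U87 (circles) and Diff cells against U87 (squares), filled where called. NRP1, PLAT, SDC2 and EXTL3 lie left of -1 in both lines, and GPC6 and CSF1 right of 1. FGF9 is listed at 0 in U87, so its position depends on the added 1.

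Of the 19 other FGF genes, 4 were tested. Calls numbered 2, 2 and 1 of these in GSCs against U87, Diff cells against U87 and Diff cells against GSCs. Over all tested genes 17.1%, 12.3% and 8.01% were called. FGF9, a secreted FGF of glial and gonadal development, was listed at 0 in the 3 U87 libraries, at 1.83, 1.86 and 2.4 TPM in GSCs and at 1.08, 1.07 and 0.881 TPM in Diff cells, and counted as called higher in both. The call in Diff cells did not hold without Diff replicate 1 or Diff replicate 2. FGF14, an intracellular modulator of sodium channels, had 2.51, 3.06 and 2.04 TPM in U87, 66.7, 59.3 and 70.8 TPM in GSCs and 14.3, 13.4 and 14.6 TPM in Diff cells. Its log2 fold changes were 4.24 in GSCs and 2.10 in Diff cells against U87 (adjusted p = 3.39e-08 and 2.06e-06). This value is uncertain, because 31.6% of the exon bases of FGF14 lie opposite ITGBL1. ITGBL1 had 10, 10.4 and 10.1 TPM in U87, 206, 211 and 181 TPM in GSCs and 43.9, 44.5 and 46.4 TPM in Diff cells, with log2 fold changes of 4.16 and 2.04. The ratio of ITGBL1 to FGF14 was 2.56 to 4.99 over the 9 libraries. Whether the counting used strand is not given in the sources used here, so reads of FGF14 and ITGBL1 cannot be told apart.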

How the data were processed

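RNA of 9 libraries (3 groups) was measured. Values deposited by the authors are log2(TPM + 1), and TPM summed to 1000000 in each column. The submitters' processing notes list FastQC 0.11.9, Trimmomatic 0.39, HISAT2 2.2.1, featureCounts 2.0.5, R 4.2.0 and GRCh38. The annotation and strand setting are not given in the sources used here. The sample records describe removal of ribosomal RNA and directional libraries, whereas the methods describe oligo(dT) enrichment.

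The 22909 genes whose mean exceeded 1 TPM entered 1 limma fit of all groups (version 3.58.1, R 4.3.3, trended eBayes) with Benjamini-Hochberg adjustment within each comparison. Exact permutation tests used scipy 1.17.1 under Python 3.11.15. Figures were drawn with matplotlib 3.10.9, from tables made with numpy 2.4.6 and pandas 2.3.3. Positions, exon overlaps and neighbours came from GENCODE 29 (53534 of 60606 genes matched), promoters from RefSeq. Tested on simulated data for GSCs against U87 (22909 genes, 200 with a log2 change of 2), the fit called 182 of these and 4 others. The simulated noise was normal and independent between genes, and far fewer genes changed than the 3908 called in the data. The simulation therefore does not show how the fit performs on these data.

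The members and lists were chosen with earlier results of these data known, the lists from general knowledge. The text names all members, and up to 6 called genes per list with the largest change. KIT, FGFRL1, PLAU, ITGBL1 and untested genes were named after their values were seen. Markers of stem, neural, pericyte, endothelial, leukocyte and oligodendrocyte precursor cells were examined. Same-numbered libraries did not deviate together (r from -0.0416 to 0.0489). Alternatives covered the pseudocount, filter, scaling, samples in the fit, trend, replicate block, threshold and omission of each library.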

Additional observations from a re-analysis of the deposited data

How the results depend on the processing

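Over 18 alternatives, 420 of 429 values of the 8 tested members kept their sign and stayed called or not called. The exceptions were FGF5 in Diff cells against GSCs (4 settings, given above) and 5 sign changes of differences that were not calls. By the adjusted p alone, 48 of 357 values whose reported adjusted p was under 0.05 were not under it: 14 and 15 of these were of FGFR1 (GSCs against U87 and Diff cells against GSCs), 14 of PDGFRA in GSCs against U87, 4 of FGF2 and 1 of PDGFA in GSCs against U87. PDGFRB in Diff cells against GSCs was 0.061 with quantile normalization, 0.017 with TPM without RN7SL1 and mitochondrial genes, 0.010 with median-ratio scaling and 0.001 without GSC replicate 2. With 1 library left out it ranged from -0.103 to 0.001. PDGFA in Diff cells against U87 was -0.003 without U87 replicate 2, with a range of -0.003 to 0.212. PLAT in Diff cells against GSCs was -0.054 without GSC replicate 2, -0.031 without Diff replicate 1 and -0.040 without Diff replicate 2, with a range of -0.054 to 0.088. The cause was not tested.

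Members called in Diff cells against GSCs numbered 1 in place of 2 with a mean TPM over 5 (which leaves out PDGFRA), quantile normalization, TPM without RN7SL1 and mitochondrial genes, median-ratio scaling, or without GSC replicate 3, and 1 to 2 with 1 library left out. In the comparisons with U87, the omission of any library left 3 called. The adjusted p alone passed 8, 5 and 7 members, 42, 39 and 29 pathway genes, and 11129, 9024 and 7982 of all genes in GSCs against U87, Diff cells against U87 and Diff cells against GSCs. With a mean TPM over 5, where 13471 genes were tested, 2254, 1583 and 1038 of all genes were called in place of 3908, 2812 and 1836, and 5 pathway genes in place of 8 in Diff cells against GSCs. With 1 library left out, all genes called ranged from 3797 to 3980, 2755 to 2811 and 1773 to 1907, and pathway genes from 17 to 20, 12 to 15 and 8 to 9. Replicate numbers pair nothing that the labels state, and 4 of 9 libraries correlated best with their own number in another group. With the replicate block, 3, 3 and 2 members, 19, 14 and 8 pathway genes, and 3917, 2810 and 1831 of all genes were called. TPM carries no depth, so levels near 0, as of PDGFB and PDGFD, have no detection limit.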

Other observations

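Of the neuron and astrocyte markers, MAP2 was the 1 called, and of the endothelial markers VWF. MAP2, a neuronal microtubule protein, had means of 7.95 TPM in U87, 8.22 TPM in GSCs and 21.7 TPM in Diff cells, and rose by 1.35 on the log2 scale in Diff cells against U87. GFAP, an astrocyte filament protein, went the other way, with means of 2.29, 0.809 and 0.909 TPM, and was not called. GFAP entered the test only through U87, so its log2 differences from U87 of -0.86 and -0.78 support nothing. TUBB3 was not called, S100B was under the filter, and the list summed to 12.5 to 15.7 TPM in U87, 13.4 to 14.1 TPM in GSCs and 28.3 to 28.7 TPM in Diff cells. VWF, a protein of endothelial cells and platelets, had 0.581, 0.708 and 0.293 TPM in U87, 11, 12 and 11.2 TPM in GSCs and 1.88, 1.64 and 1.71 TPM in Diff cells. VWF entered the test only through GSCs and Diff cells, so its call in GSCs against U87 supports nothing. The other endothelial markers were PECAM1, with means of 2.77, 6.25 and 2.92 TPM, and CDH5, which was under 1 TPM.

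Some FGF genes under the filter were also listed at different levels. FGF12 had 1.32, 1.37 and 1.59 TPM in U87, 0.0934, 0.132 and 0.168 TPM in GSCs and 0.598, 0.352 and 0.76 TPM in Diff cells. FGF20 had means of 0.207, 0.796 and 0.287 TPM. Neither was tested, because their means over the 9 libraries were not over 1 TPM.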
